A study of Rattus with 9 samples.

Results

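Bile ducts of rat liver grafts under raised hepatic arterial flow, taken 3 days after liver transplantation (LT), were compared with bile ducts of sham rats by single-cell RNA sequencing. The raised-flow group held 2 libraries, numbered 2 and 3 in the series, with 8122 and 9557 cells (17679 together), and the sham group held 3 libraries with 2456, 9971 and 11980 cells (24407 together), out of 150379 cells in the 20 libraries of the series. Libraries were chosen by group, day and the presence of a count matrix and not by a measured value, although earlier results of these data were known. A barcode counted as a cell when it had 401 to 5999 detected genes, under 25% mitochondrial and under 3% hemoglobin transcripts. The unique molecular identifiers (UMIs, 1 per captured transcript) of all cells, or of all cells of a type, were added up in each library, so that the library was the replicate.

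The series holds a transplant arm, in which the graft suffered ischemic injury, and a raised-flow arm, in which the recipient's splenic and gastroduodenal arteries were tied in addition. Both arms were sampled on days 1, 3 and 7, and the sham bile ducts carry no day. The methods of the study name Sprague-Dawley rats of both sexes and young age and a period of warm ischemia for its transplants, whereas the labels of these libraries give neither strain, sex, age, graft donor nor the sham operation. They also do not say whether a library was 1 rat or a pool, and the raised-flow libraries are file sets of a single deposited sample, so the spread between them may be technical and p-values measure only the spread between libraries. A further file set of that sample was not analysed here. Because grafts were compared with sham tissue, surgery, ischemia, transplantation, arterial ligation and time cannot be told apart in this comparison.

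The bile duct is fed by arterial branches, among them those of the hepatic artery, and its epithelium, the biliary epithelial cells (BEC), is sensitive to ischemia. After transplantation, monocytes, T cells and natural killer cells enter the graft, and interferon-gamma from lymphocytes induces the chemokines Cxcl9, Cxcl10 and Cxcl11, guanylate-binding proteins and the machinery that loads peptides onto major histocompatibility complex (MHC) molecules. These chemokines bind Cxcr3 on activated T cells, and the MHC molecules present antigen to them. Tuft cells, a chemosensory epithelial cell, and pancreatic tissue, which lies against the extrahepatic duct, are the other cells that bear on what follows.

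The libraries held 10721099 to 73737096 UMIs in cells, with a median of 2903 to 4879 UMIs per cell. Sham library 1 stood apart: 50.4% of its UMIs lay in cells against 79.4% to 84.0% in the other 4 libraries, its cells had the highest median share of mitochondrial transcripts (5.09% against 2.05% to 3.36%), and it was the smallest. Any pair of the 5 libraries shared 5 to 34 cell barcodes, with 13 shared by the raised-flow libraries, which differed from each other by more than sampling noise (chi-square per degree of freedom 44.3 over 14603 genes; sham libraries 2 and 3, 56.6). Duct markers were present in every library, with Krt7, a keratin of duct epithelium, at 499.5 and 259 CPM with raised flow and 517, 338 and 369 CPM in sham. Levels are in CPM, the UMIs of a gene in every 1000000 UMIs of a library, scaled by edgeR's TMM factors, and values are given in the order raised-flow library 2 and 3, then sham library 1, 2 and 3. Where a pair of values is set against 3, the pair is raised flow and the 3 are sham. "Rose" and "fell" are used for an adjusted p under 0.05 in edgeR's quasi-likelihood test with Benjamini-Hochberg adjustment over all genes tested ("edgeR adjusted p"), and fold changes are raised flow over sham with their standard error (SE).

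Monocytes, natural killer and T cells (NK&T) and B cells made up a larger part of the raised-flow libraries than of any sham library. Clusters were named from marker genes, and each name stands for cells like that type, while 4.93% to 8.49% of the cells of a library lay in clusters left without a name. Monocytes were 17.2% and 25.2% of cells with raised flow and 3.99%, 0.702% and 0.417% in sham, a 12.4-fold higher mean share, and 37.8-fold without sham library 1. NK&T were 16.04% and 16.6% of cells with raised flow and 5.21%, 2.67% and 3.53% in sham, 4.298-fold higher. B cells were 4.62% and 6.896% of cells with raised flow and 0.326%, 0.411% and 0.326% in sham, 16.3-fold higher. In each of these types both raised-flow libraries lay above all sham libraries, which gives an exact permutation p = 0.2 (two-sided), the smallest that 2 against 3 libraries allow.

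Tuft cells lay on the other side. They were 0.973% and 0.188% of cells with raised flow and 21.3%, 8.02% and 5.62% in sham, in cells 79 and 18 against 524, 800 and 673, with an exact permutation p = 0.2. Acinar cells of the pancreas numbered 0 in both raised-flow libraries, which allows a share of up to 0.0369% and 0.0314%, and 3, 26 and 88 in sham. BEC did not separate, at 17.8% and 14.2% of cells with raised flow and 20.03%, 17.5% and 15.8% in sham, and neither did endothelial cells (EC), at 5.57% and 8.79% of cells with raised flow and 14.05%, 5.54% and 5.14% in sham. Neutrophils were 12.3% and 2.46% of cells with raised flow and 2.97%, 0.0501% and 0.0751% in sham, with an overlap through sham library 1. Fibroblasts were 5.73% and 6.31% of cells with raised flow and 4.19%, 36.3% and 48.7% in sham, with an overlap that again came from sham library 1 alone. Macrophages were 8.54% and 6.84% of cells with raised flow and 16.4%, 13.6% and 9.32% in sham, without overlap (exact permutation p = 0.2), but their share of UMIs was higher with raised flow (8.90% against 7.45% on average), so that their direction turned with the unit of the share. A share depends on how readily each cell type survived digestion and dead-cell removal, and that part was not tested.

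**Figure D1:**
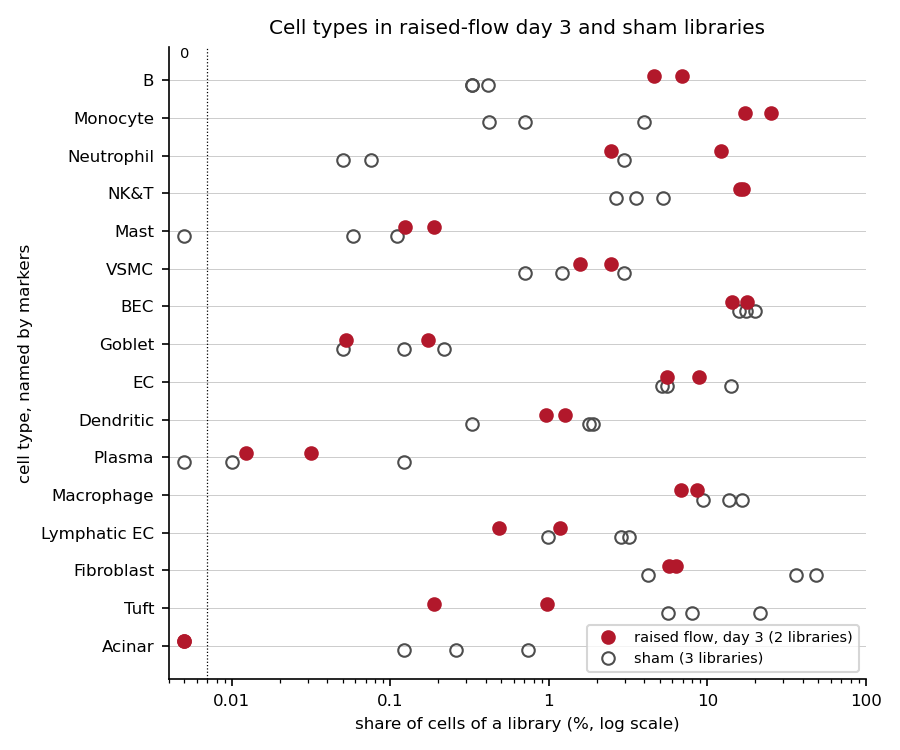
Share of cells of each named type in every library (x axis, percent of cells on a log scale; types on the y axis; filled circles, the 2 raised-flow day 3 libraries; open circles, the 3 sham libraries; a library with no cell of a type is drawn at the left edge). Monocytes, NK&T and B cells lie higher in both raised-flow libraries than in any sham library, and tuft cells lie lower.

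Over the sum of all cells, 1168 of 15381 tested genes rose (7.59%) and 539 fell (3.5%), 11.1% in all. The rises were led by chemokines and enzymes that interferon-gamma induces and by genes of activated T cells, and the falls by digestive enzymes of the pancreas. In such a sum, fewer cells of a type and less RNA per cell cannot be told apart. The number of genes called was 7529, 20 and 66 without sham library 1, 2 or 3, 0 and 0 without raised-flow library 2 or 3, and 0 with the raised-flow libraries summed. Scaling by library size alone in place of TMM moved the median log2 fold change of all genes from -0.08 to -0.45. The share of rises among called genes then went from 68.4% to 25.6%. A sum of the 8 tested cell types at equal weight gave 284 rises and 772 falls, with 245 of the called genes on the other side of 0. That sum held no B, tuft, neutrophil, dendritic or acinar cells, which had too few cells in some library to be tested. It was also not TMM-scaled (median log2 fold change -0.20), so cell weights and scaling changed together in it.

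The strongest genes were ranked by fold among called genes with at least 20 CPM in the higher group and no overlap between the groups. The 12 strongest rises were the chemokines Cxcl11 and Cxcl9, the ubiquitin-like modifier Ubd, Acod1, Hk3, Tnfrsf4, Ctla4, Pdcd1lg2, Gzma, Gzmbl2, Ccl19 and Spink4. Acod1, which makes itaconate in activated macrophages, was 25.2 and 19.3 CPM with raised flow and 0.0740000, 0.124 and 0.104 CPM in sham (log2 fold change 7.64 ± 0.26, edgeR adjusted p = 0.00346). Cxcl11 was 455 and 849 CPM with raised flow and 1.12, 2.74 and 2.31 CPM in sham (log2 fold change 8.25 ± 0.53, edgeR adjusted p = 0.00718). Hk3, the hexokinase of myeloid cells, was 48.2 and 58.4 CPM with raised flow and 0.967, 1.38 and 0.652 CPM in sham (log2 fold change 5.73 ± 0.36, edgeR adjusted p = 0.00718). All of these were close to absent in every sham library and present in both raised-flow libraries.

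Further genes of this ranking followed. Ctla4, an inhibitory receptor, was 40.999 and 32.3 CPM with raised flow and 1.34, 1.08 and 1.21 CPM in sham (log2 fold change 4.94 ± 0.19, edgeR adjusted p = 0.00346). Tnfrsf4, the costimulatory receptor OX40, was 27.6 and 34.2 CPM with raised flow and 1.04, 0.465 and 0.991 CPM in sham (log2 fold change 5.27 ± 0.39, edgeR adjusted p = 0.0083). Pdcd1lg2 encodes PD-L2, a ligand of the receptor PD-1, and was 26.7 and 24.3 CPM with raised flow and 1.86, 0.681 and 0.704 CPM in sham (log2 fold change 4.72 ± 0.48, edgeR adjusted p = 0.0126). The granule proteases differed more between the raised-flow libraries than these genes did. Gzma was 311 and 112 CPM with raised flow and 12.3, 3.35 and 5.11 CPM in sham (log2 fold change 4.97 ± 0.75, edgeR adjusted p = 0.0249). Gzmbl2 was 183 and 49.1 CPM with raised flow and 4.02, 1.91 and 3.04 CPM in sham (log2 fold change 5.31 ± 0.67, edgeR adjusted p = 0.0187). In both, the lower raised-flow library still lay above every sham library. Ccl19, a chemokine of lymphoid tissue, was 355 and 527 CPM with raised flow and 42.8, 11.2 and 5.24 CPM in sham (log2 fold change 4.50 ± 0.94, edgeR adjusted p = 0.0448), and the level in sham was highest in library 1.

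Immune lists rose together over all cells. Of the interferon-stimulated genes 15 of 20 tested rose (median log2 fold change 2.02 against -0.08 for all tested genes), of the antigen presentation genes 14 of 17 (2.12) and of the T cell checkpoint genes 9 of 13 (3.71). None of their members fell, and with equal weight for the 8 tested cell types the rises were 13, 13 and 4. Under that weighting 284 of all 15381 genes rose and 772 fell. Rises without falls were also counted for cytotoxic effectors (6 of 12), inflammatory cytokine and NF-kB genes (9 of 21), mucosal defense (8 of 18), HIF target and glycolysis genes (8 of 28), neutrophil granule and recruitment genes (6 of 18), monocyte chemokines (5 of 14) and complement (4 of 18). With equal weight for the 8 tested cell types these lists no longer all moved one way. Rises and falls were then 2 and 2 for cytotoxic effectors (median log2 fold change -0.64), 3 and 3 for monocyte chemokines, 1 and 2 for HIF target and glycolysis genes and 3 and 2 for complement. The rises were 2 for inflammatory, 6 for mucosal defense and 3 for neutrophil genes, with no falls, in a sum without neutrophils. With doublets removed the monocyte chemokine rises were 3. Slpi, a protease inhibitor of myeloid cells and mucosa, was 2369 and 4032 CPM with raised flow and 184, 273 and 280.1 CPM in sham (log2 fold change 3.70 ± 0.33, edgeR adjusted p = 0.0108). Il1b, a cytokine that the inflammasome matures, was 1361 and 1264 CPM with raised flow and 275, 172 and 164 CPM in sham (log2 fold change 2.69 ± 0.27, edgeR adjusted p = 0.0126). The glucose transporter gene Slc2a1 was 41.8 and 62.3 CPM with raised flow and 14.6, 16.7 and 16.1 CPM in sham (log2 fold change 1.72 ± 0.20, edgeR adjusted p = 0.0169). Each of these genes lay higher in both raised-flow libraries than in any sham library, beside the larger shares of monocytes, NK&T and B cells. Of the alternatives for these sums, only the equal weighting gave monocytes and NK&T the same weight in every library. The tests within a cell type, given below, hold the type fixed. Both left B cells out, so the part of B cells was not tested.

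Fewer calls, or calls both ways, came from the other lists over all cells, where 7.59% of all genes rose and 3.5% fell, and several of the counts lie near those shares. Resident macrophage genes had 3 rises of 16, cell cycle 3 of 21, the unfolded protein response 2 of 19, biliary keratins and junctions 2 of 22 and leukocyte adhesion 1 of 15, with no fall in any of them. Metalloproteinases and inhibitors had 2 rises and 3 falls of 21, selenoprotein and selenium genes 2 and 3 of 30, NRF2 antioxidant genes 4 and 1 of 18, and TGF-beta genes 2 and 1 of 20. Biliary transcription factors had 1 and 2 of 19, tuft cell genes 1 and 2 of 16, and collagen and matrix genes 1 and 1 of 29. Elastic fiber genes had 1 fall of 17, immediate early and heat shock genes 1 of 24, and hepatocyte and plasma protein genes 2 of 12. No member was called by edgeR among the 27 shear and endothelial, 17 biliary transport and secretion, 16 Crem and epithelial-mesenchymal transition (EMT) or 5 erythroid genes tested. With equal weight for the 8 tested cell types, which leaves tuft cells out, and without TMM scaling, 9 of the shear and endothelial genes fell. So did 3 of the Crem and EMT genes, 4 of the tuft cell genes and 4 of the biliary transcription factors. In that fit 284 of all 15381 genes rose and 772 fell, so its background differs from the shares given above.

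Without sham library 1, which stood apart, edgeR called 3701 rises and 3828 falls of 15317 genes over all cells, and most of these lists changed. Falls then numbered 23 of 29 collagen and matrix genes (median log2 fold change -1.83, from -1.35), 15 of 17 elastic fiber genes (-2.05, from -1.62) and 13 of 16 tuft cell genes (-2.39, from -3.27), with 1, 1 and 2 rises. Shear and endothelial genes went to 13 rises and 2 falls of 27, and their median turned from -0.33 to 0.48, while the equal weighting gave falls and no rise. Leukocyte adhesion genes had 12 rises of 15 and cell cycle genes 8 of 21, with no fall in either. Calls went both ways, as rises and falls, in the Crem and EMT list (4 and 8 of 16), metalloproteinases and inhibitors (3 and 10 of 21), TGF-beta (4 and 9 of 20), selenium (9 and 10 of 30) and NRF2 genes (9 and 2 of 18) and the unfolded protein response (8 and 1 of 19). They also did in biliary transport (4 and 4 of 18), biliary keratins and junctions (5 and 4 of 22) and biliary transcription factors (4 and 4 of 19). The counts of these biliary lists lie near or under the shares of all genes in this fit. Further lists with calls both ways were immediate early (5 and 9 of 24), resident macrophage (6 and 3 of 16), hepatocyte (5 and 4 of 12) and erythroid genes (3 and 1 of 5). Of the lists with rises and no falls in the full comparison, HIF target and glycolysis genes then had 14 and 3 of 28, complement 6 and 5 of 18, monocyte chemokines 8 and 1 of 14, mucosal defense 12 and 2 of 18 and inflammatory genes 14 and 1 of 21, while cytotoxic effectors rose in 11 of 11 and neutrophil genes in 16 of 18.

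Transcripts of the Crem and vimentin axis that the study followed were not called over all cells. Crem, a cAMP-responsive transcription factor, was 379 and 402 CPM with raised flow and 112, 218 and 199 CPM in sham. Both raised-flow libraries lay above all sham libraries, and the test missed the threshold (log2 fold change 1.15 ± 0.30, edgeR adjusted p = 0.0699), while Crem in all cells was called by DESeq2 (log2 fold change 1.17, adjusted p = 0.00748) and by edgeR without sham library 1 (0.91, adjusted p = 0.00108). With the 8 tested cell types weighted equally and no TMM scaling its log2 fold change was -0.45, on the other side of 0. Vim, the mesenchymal intermediate filament, was 2335 and 2555 CPM with raised flow and 1015, 2529 and 1976 CPM in sham (log2 fold change 0.41 ± 0.39, edgeR adjusted p = 0.487), with the raised-flow values inside or just above the range of sham. The cadherin genes Cdh1 (edgeR adjusted p = 0.825) and Cdh2 (0.354) and the epithelial genes Krt19 (0.363), Krt7 (0.848) and Epcam (0.342) were not called either. Cdh2 in all cells fell without sham library 1 (log2 fold change -1.01, edgeR adjusted p = 0.00386), and with equal weights Epcam in all cells fell (-0.67, limma adjusted p = 0.0316).

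All 12 of the strongest falls over all cells were genes of enzymes, cofactors or granule proteins of the exocrine pancreas. They were the lipases and colipase Pnlip, Pnliprp1 and Clps, the proteases Prss1, Prss3b, Ctrb1, Cela2a, Cela3b, Cpa1 and Cpb1, the phospholipase Pla2g1b and the zymogen granule protein Sycn. Prss1, encoding trypsinogen, was 0.112 and 0 CPM with raised flow and 60.99, 403 and 847 CPM in sham (log2 fold change -12.86 ± 2.0, edgeR adjusted p = 0.0262). Pnlip was 0 in both raised-flow libraries and 30.8, 88.1 and 177 CPM in sham, at least 1456-fold lower against a floor of 3 UMIs per raised-flow library. Pancreatic enzymes were also among the 5 strongest falls in 7 of the 8 cell types tested, none of which is known to make them. In the barcodes with at most 100 UMIs, taken as empty, Prss1 stood at 1.38 and 0.202 CPM with raised flow and 313, 7289 and 9151 CPM in sham. Its level in sham NK&T was 28.98, 341 and 499 CPM, where free RNA alone was estimated to give 25.2, 451 and 596 CPM. The acinar cells and the free pancreatic RNA of the sham libraries moved with these falls, and their source was not tested.

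Interferon-stimulated and antigen presentation genes rose in 7 of the 8 cell types tested, with 1 fall of an interferon-stimulated gene in monocytes, and went both ways in NK&T. As background, the share of all tested genes that rose was 3.99% in BEC, 2.27% in EC, 5.21% in fibroblasts, 2.23% in lymphatic EC, 6.5% in macrophages, 5.58% in monocytes, 15.0% in NK&T and 5.95% in vascular smooth muscle cells (VSMC in the study's naming, cluster 23, led by the contractile genes Tagln and Acta2 and holding all 7 mural markers, among them Rgs5, Kcnj8 and Abcc9, which pericytes carry too). Of the interferon-stimulated genes tested, 14 of 20 rose in BEC, 10 of 20 in EC, 15 of 20 in fibroblasts, 11 of 19 in lymphatic EC, 10 of 20 in macrophages, 8 of 19 in monocytes, 5 of 18 in NK&T and 16 of 17 in VSMC. Falls were counted in monocytes (1) and NK&T (4) and in none of the other 6 types. The median log2 fold change of the list ran from 0.22 in NK&T and 1.06 in monocytes to 2.60 in BEC and 4.13 in VSMC, while the median of all tested genes lay between -0.06 and -0.01. Of the antigen presentation genes, 15 of 16 rose in BEC, 12 of 15 in EC, 13 of 15 in fibroblasts, 9 of 14 in lymphatic EC, 11 of 15 in macrophages, 8 of 14 in monocytes, 5 of 14 in NK&T (2 fell) and 13 of 14 in VSMC.

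Without sham library 1, interferon-stimulated genes rose in 18 of 20 in BEC, 14 of 20 in EC, 17 of 20 in lymphatic EC and 20 of 20 in fibroblasts. Of all genes in those fits, 1407 of 12516 rose in BEC, 664 of 8835 in EC, 391 of 6791 in lymphatic EC and 1127 of 12979 in fibroblasts. After the profile of empty barcodes was subtracted, interferon-stimulated genes rose in 14 of 20 in BEC, 7 of 20 in EC, 14 of 20 in fibroblasts and 16 of 17 in VSMC. Antigen presentation genes went to 8 of 13 in fibroblasts and 9 of 9 in VSMC. After this subtraction 502 of all 12332 genes rose in BEC, 124 of 8557 in EC, 345 of 10740 in fibroblasts and 250 of 5213 in VSMC. In NK&T the interferon-stimulated genes went to 3 rises and 4 falls of 16 after this subtraction (median log2 fold change -0.15) and to 3 rises and 4 falls of 16 with doublets removed (-0.22), so the sign of the median turned. Antigen presentation genes in NK&T counted 5 rises and 2 falls of 14 (median 0.09), 5 and 2 after the subtraction (-0.08) and 5 and 4 with doublets removed (-0.16). Rises and falls of all NK&T genes were 1033 and 1035 of 6341 after the subtraction and 1122 and 1105 of 6584 with doublets removed. With the raised-flow libraries summed to 1 sample, fewer interferon-stimulated genes were called in each of the 8 types and over all cells. That fit has no spread within the raised-flow group, so its counts are not set beside the others.

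**Figure D2:**
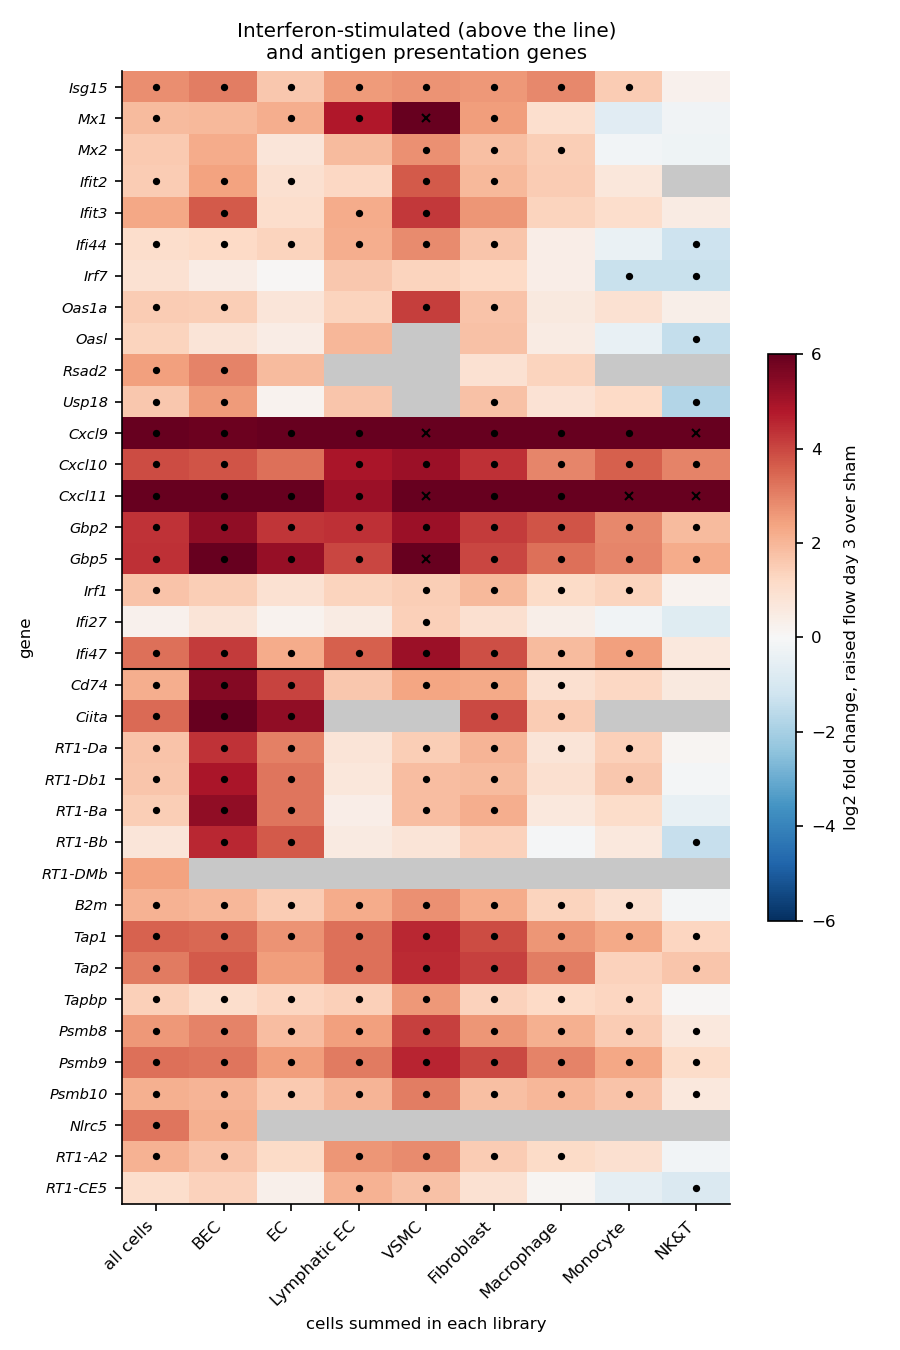
Log2 fold change of raised flow day 3 over sham for genes of the interferon-stimulated and antigen presentation lists (rows) in all cells and in 8 cell types (columns). A dot marks an edgeR adjusted p under 0.05, grey a gene not tested there, a cross a gene with 0 in all libraries of a group, and colours are capped at 6 either way; most tiles are on the rising side in the epithelial, endothelial and stromal columns, and the NK&T column holds both directions.

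The chemokines Cxcl9, Cxcl10 and Cxcl11 rose in most of the types, with EC at the highest level of each with raised flow. In EC, Cxcl9 was 5608 and 8274 CPM with raised flow and 7.27, 94.4 and 126 CPM in sham (log2 fold change 6.50 ± 0.88, edgeR adjusted p = 0.0105). Fibroblast Cxcl9 was 2325 and 1660.2 CPM with raised flow and 8.67, 19.6 and 9.904 CPM in sham (log2 fold change 7.19 ± 0.41, edgeR adjusted p = 0.000604). VSMC had 2638 and 2217 CPM of Cxcl9 with raised flow and 0 in all sham libraries, at least 314-fold higher against a floor of 3 UMIs per sham library. These 3 types held the highest Cxcl9 with raised flow. Macrophages followed with 427 and 621 CPM against 15.5, 1.79 and 2.38 CPM (log2 fold change 6.93 ± 0.82, edgeR adjusted p = 0.00907). Lymphatic EC had 538 and 301 CPM against 0, 5.998 and 3.27 CPM (log2 fold change 6.63 ± 0.50, edgeR adjusted p = 0.000819). BEC had 111 and 161 CPM against 0, 3.93 and 1.90000 CPM (log2 fold change 5.86 ± 0.62, edgeR adjusted p = 0.00635). In each of these types both raised-flow libraries lay far above every sham library. The Cxcl9 of raised-flow NK&T, 11.5 and 25.8 CPM before scaling, was near the 14.9 and 25.1 CPM that free RNA was estimated to give there.

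Cxcl11 was again highest in EC, with 3761 and 5789 CPM with raised flow and 0.661, 6.93 and 14.2 CPM in sham (log2 fold change 9.27 ± 0.67, edgeR adjusted p = 0.000756). Monocytes had 702 and 851 CPM and no UMI in any sham library, at least 43.3-fold higher, from only 98, 70 and 50 sham monocytes. Macrophages had 423 and 1037 CPM against 10.3, 2.77 and 14.98 CPM of Cxcl11 (log2 fold change 6.34 ± 0.74, edgeR adjusted p = 0.00907). BEC and fibroblasts had less. Their Cxcl11 was 139 and 238 CPM against 0.228, 3.52 and 1.13 CPM in BEC (log2 fold change 6.63 ± 0.62, edgeR adjusted p = 0.00486) and 234 and 195 CPM against 0, 0.959 and 0.229 CPM in fibroblasts (log2 fold change 8.58 ± 0.55, edgeR adjusted p = 0.000967). VSMC had 208 and 279 CPM against 0 in sham, at least 31.6-fold higher. In lymphatic EC the rise of Cxcl11 (27.03 and 42.3 CPM against 0, 0.666 and 1.64 CPM, log2 fold change 5.15 ± 0.68, edgeR adjusted p = 0.00881) was of the size of free RNA, 24.4 and 39.3 CPM before scaling against an estimate of 24.5 and 36.9 CPM. In NK&T it reached 15.9 and 45.6 CPM against 14.8 and 25.3 CPM.

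Cxcl10 was present in sham as well, least in library 1. VSMC had 2364 and 2602 CPM against 9.93, 125 and 84.4 CPM (log2 fold change 5.12 ± 0.58, edgeR adjusted p = 0.000887). Lymphatic EC had 1740.2 and 3859.6 CPM against 9.02, 93.96 and 167 CPM of Cxcl10 (log2 fold change 4.92 ± 0.77, edgeR adjusted p = 0.0162). BEC had 875 and 1873 CPM against 36.02, 139 and 125 CPM (log2 fold change 3.77 ± 0.60, edgeR adjusted p = 0.0216). In EC the level was 3909 and 5839 CPM against 35.7, 662 and 803 CPM, and although the groups did not overlap the test missed the threshold (log2 fold change 3.28 ± 0.94, edgeR adjusted p = 0.125). Cxcl10 in EC was called without sham library 1 (log2 fold change 2.72, edgeR adjusted p = 2.1e-07). Ubd, which interferon-gamma and TNF induce, was 3312 and 3729 CPM against 0, 9.06 and 6.85 CPM in EC (log2 fold change 9.29 ± 0.65, edgeR adjusted p = 0.00062). Fibroblasts had 873 and 165 CPM against 1.08, 1.44 and 0.709 CPM of Ubd (log2 fold change 8.93 ± 0.87, edgeR adjusted p = 0.00385), with a wide gap between the raised-flow libraries. Macrophages had 473 and 334 CPM against 11.3, 0.976 and 0.713 CPM (log2 fold change 7.45 ± 0.92, edgeR adjusted p = 0.0102), VSMC 687 and 372 CPM against 1.99, 0 and 0 CPM (log2 fold change 9.08 ± 0.57, edgeR adjusted p = 3.27e-05) and monocytes 113 and 177 CPM against 0, at least 8.06-fold higher.

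**Figure D3:**
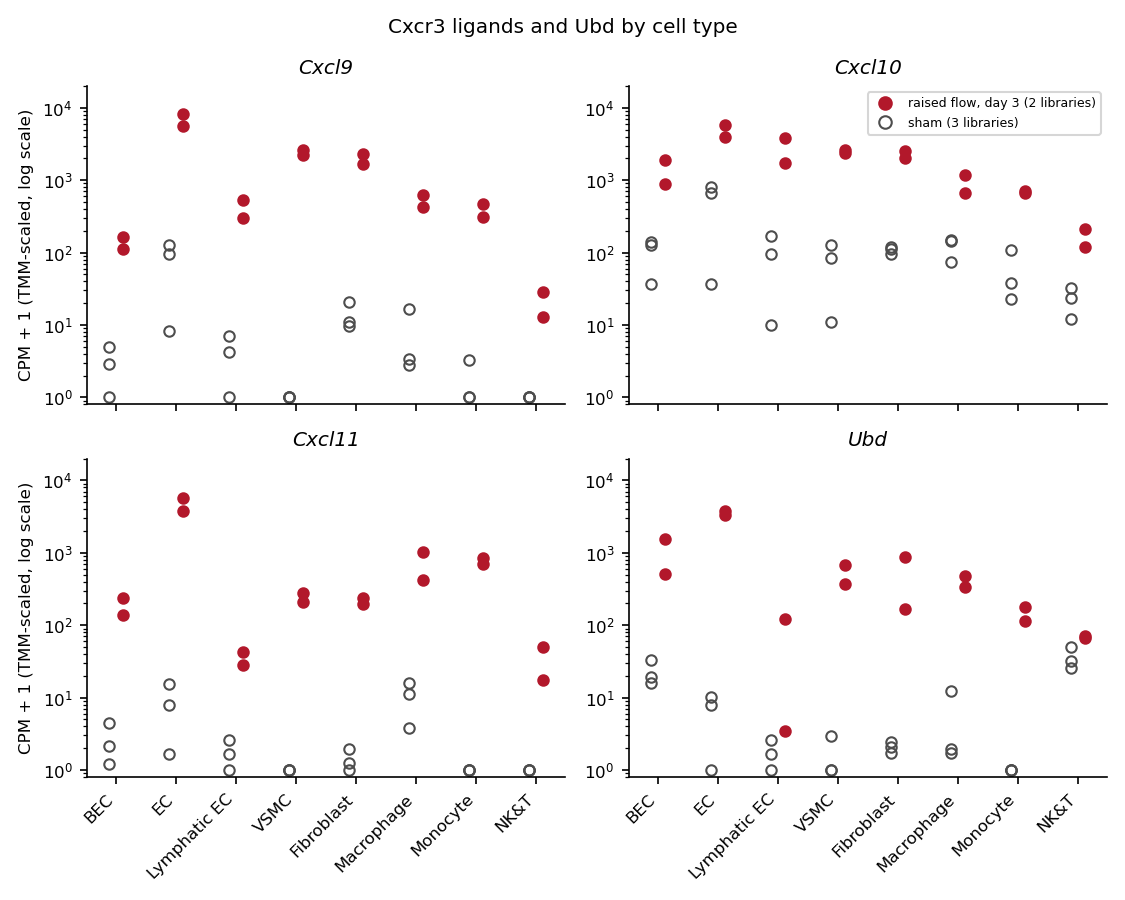
Level of Cxcl9, Cxcl10, Cxcl11 and Ubd in every library by cell type (y axis, TMM-scaled CPM + 1 on a log scale; filled circles, the 2 raised-flow day 3 libraries; open circles, the 3 sham libraries). In EC, VSMC and fibroblasts Cxcl9 lies above 1000 CPM in both raised-flow libraries and at 126 CPM or less in every sham library, while NK&T have the lowest raised-flow Cxcl9 of the 8 types.

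Guanylate-binding proteins, which act against pathogens inside cells, and antiviral genes rose with the chemokines. Gbp1 was 82.4 and 90.8 CPM with raised flow and 0, 0 and 0.978 CPM in sham in EC (log2 fold change 7.67 ± 0.48, edgeR adjusted p = 0.000414). Gbp5 was 34.6 and 37.6 CPM against 0, 0.948 and 0.359 CPM in BEC (log2 fold change 6.04 ± 0.44, edgeR adjusted p = 0.00234), and 137 and 135 CPM against 0 in VSMC, at least 17.6-fold higher. Isg15, a ubiquitin-like protein induced by every interferon type, was 466 and 748 CPM against 41.7, 91.4 and 79.6 CPM in BEC (log2 fold change 3.09 ± 0.36, edgeR adjusted p = 0.00889). Mx1, an antiviral GTPase, was 41.4 and 46.98 CPM against 9.26, 9.597 and 10.3 CPM in EC (log2 fold change 2.18 ± 0.21, edgeR adjusted p = 0.00247). None of these values overlapped between the groups.

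MHC class II genes rose in BEC and EC, which carry little of them in sham. Cd74, the class II invariant chain, was 3018 and 2771 CPM with raised flow and 76.6, 60.02 and 58.03 CPM in sham in BEC (log2 fold change 5.48 ± 0.20, edgeR adjusted p = 0.000295). The estimate of free RNA for Cd74 in these raised-flow BEC was 169 and 154 CPM, against 2730.5 and 2517 CPM observed before scaling. Ciita, the master regulator of class II genes, was 19.01 and 18.7 CPM against 0, 0.135 and 0.308 CPM in BEC (log2 fold change 6.48 ± 0.40, edgeR adjusted p = 0.00164). EC had 1627 and 2111 CPM against 67.4, 119 and 149 CPM of Cd74 (log2 fold change 4.06 ± 0.33, edgeR adjusted p = 0.00117) and 10.01 and 9.396 CPM against 0, 0.533 and 0 CPM of Ciita (log2 fold change 5.32 ± 0.75, edgeR adjusted p = 0.0117). VSMC stood apart from them, since their Cd74 of 256 and 343 CPM before scaling lay at or under the free-RNA estimate of 258 and 407 CPM. Class I genes rose in BEC too. Tap1, a pump that moves peptides into the endoplasmic reticulum, was 336 and 343 CPM against 29.6, 32.4 and 30.6 CPM (log2 fold change 3.46 ± 0.11, edgeR adjusted p = 0.000279). Psmb9, an immunoproteasome subunit, was 1242 and 1382 CPM against 111, 165 and 151 CPM (log2 fold change 3.201 ± 0.20, edgeR adjusted p = 0.00164). B2m, the class I light chain, was 9979 and 9314 CPM against 2712, 2445 and 2037 CPM (log2 fold change 2.01 ± 0.20, edgeR adjusted p = 0.00576).

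NK&T showed the most called genes of the 8 types: 1000 rose and 1136 fell of 6651 tested (32.1%). The test also recovered the most simulated 2-fold changes there, 61%, against 17% in macrophages to 45% in fibroblasts for the other types. The ranking by called genes therefore does not rank the size of change. Checkpoint and cell cycle genes rose, and immediate early and TGF-beta genes fell. Cluster 0 (Cd3d, Gzma, Lag3) held 58.3% and 65.7% of these cells with raised flow and 59.4%, 44.0% and 45.6% in sham, with an overlap through sham library 1. Cluster 20, which carries cell cycle markers and 2.74 times the median UMIs of its libraries, held 28.4% and 20.5% with raised flow and 0.781% to 2.84% in sham. Cluster 14 (Gzmm, Klrd1, Xcl1) held 4.53% and 5.53% with raised flow and 35.2% to 52.3% in sham. In NK&T edgeR called 3352, 1208 and 1128 genes without sham library 1, 2 or 3, 392 and 607 without raised-flow library 2 or 3, and 499 with the raised-flow libraries summed.

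Checkpoint genes rose in 8 of 12 tested in NK&T, against 15.0% of all genes. Lag3, an inhibitory receptor for MHC class II, was 633 and 363 CPM with raised flow and 37.8, 39.2 and 33.8 CPM in sham (log2 fold change 3.76 ± 0.28, edgeR adjusted p = 0.00049). Tnfrsf4 was 128 and 182 CPM against 24.4, 21.95 and 40.6 CPM (log2 fold change 2.35 ± 0.29, edgeR adjusted p = 0.00168). Ctla4, which competes with Cd28 for its ligands, was 190.3 and 166 CPM against 28.9, 43.9 and 48.3 CPM (log2 fold change 2.10 ± 0.23, edgeR adjusted p = 0.00129). Their groups did not overlap. Rises were also called for Havcr2 (1.87 on the log2 scale), Tnfrsf9 (1.43), Il2ra (1.16), Icos (0.94) and Cd28 (0.82).

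Cell cycle genes rose in 17 of 20 tested in NK&T, with a median log2 fold change of 1.86 against -0.06 for all genes. Mki67, present in dividing cells, was 123 and 87.2 CPM with raised flow and 15.5, 20.4 and 44.5 CPM in sham (log2 fold change 1.84 ± 0.36, edgeR adjusted p = 0.00777). Rrm2, a subunit of ribonucleotide reductase, was 46.95 and 30.7 CPM against 11.1, 0 and 0.967 CPM (log2 fold change 3.74 ± 0.69, edgeR adjusted p = 0.00664). Pold2, a subunit of DNA polymerase delta and among the 5 strongest rises, was 34.5 and 29.7 CPM against 4.44, 1.57 and 0.967 CPM (log2 fold change 4.06 ± 0.46, edgeR adjusted p = 0.00131). With the cells of the highest doublet scores removed, 16 of 20 cell cycle genes still rose. All 7 rises among the 22 HIF target and glycolysis genes were enzymes of glycolysis, such as Eno1, enolase, at 528 and 499.7 CPM against 211, 241 and 288 CPM (log2 fold change 1.05 ± 0.18, edgeR adjusted p = 0.00455). The 4 falls of this list were the HIF targets Vegfa (-1.52 on the log2 scale), Bnip3 (-1.75), Bnip3l (-0.92) and P4ha1 (-1.64). Of all genes in NK&T 15.0% rose and 17.1% fell, so the falls of the list lay near that share. The median log2 fold change of the list was 0.05.

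Immediate early and heat shock genes fell in 15 of 22 tested in NK&T and rose in none, against 17.1% of all genes falling. Fos was 93.2 and 118 CPM with raised flow and 677, 414 and 323 CPM in sham (log2 fold change -2.15 ± 0.32, edgeR adjusted p = 0.00296). Junb, its partner in AP-1, was 1584 and 1564 CPM against 5776, 3798 and 3809 CPM (log2 fold change -1.50 ± 0.20, edgeR adjusted p = 0.00209). Dusp1, a phosphatase of MAP kinases, was 156 and 161 CPM against 559.6, 749.6 and 628 CPM (log2 fold change -2.03 ± 0.19, edgeR adjusted p = 0.00107). With the raised-flow libraries summed fewer of them were called, in a fit with no spread within that group. TGF-beta genes fell in 8 of 11, among them the feedback inhibitor Smad7 (74.9 and 97.4 CPM against 298, 252 and 289.97 CPM, log2 fold change -1.70 ± 0.20, edgeR adjusted p = 0.0015). Crem fell in NK&T (565 and 581 CPM against 682, 1488 and 1583 CPM, log2 fold change -1.13 ± 0.32, edgeR adjusted p = 0.0295). Its raised-flow values lay just under that of sham library 1 and well under those of sham libraries 2 and 3.

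Cytotoxic genes went both ways in NK&T, with 1 rise and 4 falls of 10 tested, against 15.0% of all genes rising and 17.1% falling. Gzma rose (1418 and 593 CPM against 362, 292 and 329 CPM, log2 fold change 1.62 ± 0.32, edgeR adjusted p = 0.00792). Ifng, the gene of interferon-gamma, fell per NK&T transcript (31.01 and 24.1 CPM against 57.7, 111 and 35.8 CPM, log2 fold change -1.27 ± 0.41, edgeR adjusted p = 0.0442), in a population with a 4.298-fold larger share of cells. Gzmm (-1.70 on the log2 scale), Tbx21, the T-bet gene (-1.42), and Ctsw (-1.13) fell as well. Gzmm and Ctsw are leading genes of cluster 14, and so is Gzma, which rose.

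Some calls in NK&T fell on genes of other cells. Collagen and matrix genes fell in 7 of 8, where Col1a1 in sham NK&T stood at 11.1, 133 and 113 CPM before scaling and free RNA was estimated to give 19.9, 258 and 348 CPM. After subtraction of the empty-barcode profile 0 of them were left to test. Slpi, a myeloid gene among the 5 strongest rises, was 162 and 560.3 CPM against 42.2, 6.27 and 31.9 CPM (log2 fold change 3.78 ± 0.64, edgeR adjusted p = 0.00453), with 75.9 and 108 CPM estimated from free RNA with raised flow. Fcnb, the monocyte ficolin, was 15.9 and 59.2 CPM against 0, 1.57 and 0 CPM (log2 fold change 6.21 ± 1.28, edgeR adjusted p = 0.00945), with 7.03 and 9.89 CPM estimated from free RNA.

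**Figure D4:**
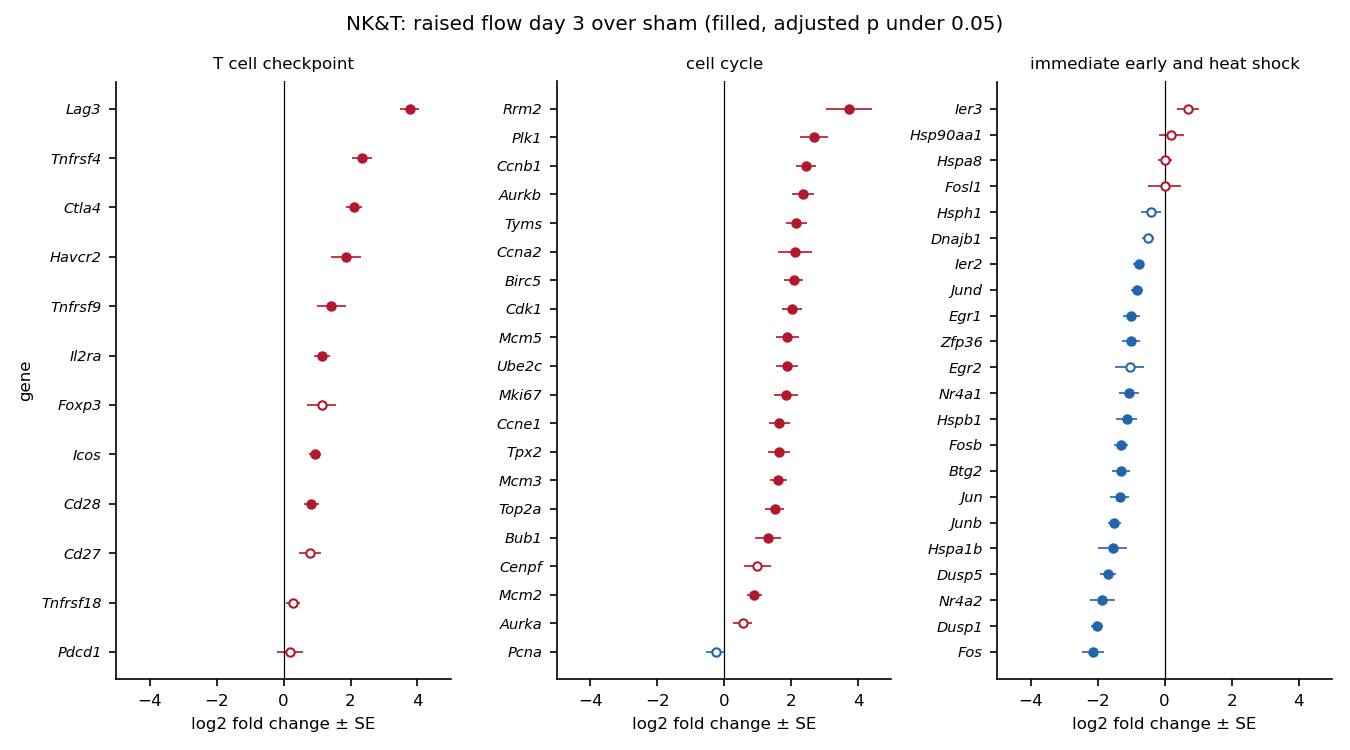
Log2 fold change of raised flow day 3 over sham with its standard error (x axis) for the tested T cell checkpoint, cell cycle, and immediate early and heat shock genes in NK&T (y axis). Filled points have an edgeR adjusted p under 0.05; 8 of 12 checkpoint and 17 of 20 cell cycle points are filled to the right of 0 and 15 of 22 immediate early and heat shock points to the left of it.

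In macrophages 621 genes rose and 335 fell of 9549 (10.0%). Interferon-stimulated genes, Serping1 and some HIF target and glycolysis genes rose, and Lyve1, Selenop and the chemokine receptor gene Ccr1 fell. Different clusters held the type in the groups: cluster 19 (Pf4, Mrc1, Mmp12) numbered 15, 1226 and 1042 cells in sham and 0 and 1 with raised flow, cluster 4 (C1qa, Clec10a, Apoe) 79, 104 and 61 against 437 and 542, and cluster 13 (C1qb, Cxcl13) 310, 24 and 14 against 257 and 111. Called genes in macrophages numbered 3404, 41 and 13 without sham library 1, 2 or 3, 13 and 0 without raised-flow library 2 or 3, and 8 with the raised-flow libraries summed, and no gene was called in all 5 fits that left out a library.

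Acod1 was 30.2 and 34.1 CPM with raised flow and 0, 0.325 and 0.238 CPM in sham in macrophages (log2 fold change 6.77 ± 0.40, edgeR adjusted p = 0.00154). Ly6h, a gene of the Ly6 family, was 88.96 and 74.996 CPM against 0, 1.14 and 1.43 CPM (log2 fold change 6.14 ± 0.38, edgeR adjusted p = 0.00166). Genes of resident macrophages went both ways. Lyve1, a hyaluronan receptor, fell (28.8 and 18.4 CPM against 116, 492 and 271 CPM, log2 fold change -3.64 ± 0.64, edgeR adjusted p = 0.0249), as did the scavenger receptor gene Stab1 (-2.31 on the log2 scale). Cd163, the hemoglobin scavenger receptor, rose (192 and 293 CPM against 81.4, 87.7 and 81.1 CPM, log2 fold change 1.54 ± 0.24, edgeR adjusted p = 0.0192), as did Gpnmb (1.67). C1qa, C1qb and C1qc, whose complement proteins mark macrophages, were not called (edgeR adjusted p = 0.216, 0.29 and 0.675). They rose without sham library 1, by 0.80 for C1qa in Macrophage sums, 0.72 for C1qb in Macrophage sums and 0.60 for C1qc in Macrophage sums on the log2 scale (edgeR adjusted p = 0.0016, 0.00237 and 0.0141).

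Among secreted and signalling genes of macrophages, Ccl12, a ligand of Ccr2, rose (529.7 and 649 CPM against 49.5, 90.96 and 159 CPM, log2 fold change 2.54 ± 0.44, edgeR adjusted p = 0.0243). Ccr1, a chemokine receptor of monocytes, fell (7.55 and 4.67 CPM against 38.1, 41.2 and 47.1 CPM, log2 fold change -2.78 ± 0.30, edgeR adjusted p = 0.00848). Serping1, the C1 inhibitor, rose (79.5 and 86.8 CPM against 6.18, 5.695 and 7.61 CPM, log2 fold change 3.67 ± 0.24, edgeR adjusted p = 0.00166). Of HIF target and glycolysis genes 7 of 27 rose, against 6.5% of all genes, including Hif1a (177 and 264 CPM against 47.4, 72.6 and 77.3 CPM, log2 fold change 1.72 ± 0.29, edgeR adjusted p = 0.0233). Without sham library 1, 10 rose and 3 fell of 26, in a fit with 1901 rises and 1503 falls of 9369 genes. Selenop, the secreted selenium carrier, fell (14.9 and 24.999 CPM against 121, 113 and 134 CPM, log2 fold change -2.62 ± 0.30, edgeR adjusted p = 0.00907), while 5 other genes of the selenium list rose, Papss2 the most (2.05 on the log2 scale). In each gene named here the raised-flow and sham libraries did not overlap.

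Monocytes gave 227 rises and 289 falls of 4067 genes (12.7%), from 1393 and 2406 cells against 98, 70 and 50. S100a8, Ptgs2 and Hif1a rose, and the integrin genes Itgal, Itga4 and Itgb2 fell. With raised flow 73.0% and 82.5% of them were in cluster 10 (Fcnb, Lyz2, Il1b, Slpi), which held 14, 25 and 6 sham cells, while cluster 11 (Csf1r, Fcgr3a) held 32.9% to 86.0% of sham monocytes. S100a8, an alarmin, was 1661 and 966 CPM with raised flow and 201, 107 and 108 CPM in sham (log2 fold change 3.16 ± 0.35, edgeR adjusted p = 0.00106). Ptgs2, cyclooxygenase 2, was 453 and 641 CPM against 50.2, 171 and 259 CPM (log2 fold change 1.95 ± 0.51, edgeR adjusted p = 0.0332). Hif1a was 270.02 and 353 CPM against 119, 92.7 and 97.05 CPM (log2 fold change 1.57 ± 0.29, edgeR adjusted p = 0.00922). In all of these the raised-flow libraries lay above every sham library. Acod1 was 64.1 and 63.2 CPM against 2.28, 0 and 0 CPM (log2 fold change 5.51 ± 0.64, edgeR adjusted p = 0.00129), and Cxcl9 309 and 469 CPM against 2.28, 0 and 0 CPM (log2 fold change 8.13 ± 0.61, edgeR adjusted p = 0.000197). Asb9, at 26.9 and 28.1 CPM against 0, was at least 1.53-fold higher by the floor.

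Leukocyte adhesion genes fell in 4 of 9 tested in monocytes and rose in none, against 7.11% of all genes falling. Without sham library 1 there were 1 rise and 2 falls of 9 (median log2 fold change -0.09, from -0.56), where 343 of all 7999 genes rose and 152 fell. Itgal, the integrin chain of LFA-1, was 9.45 and 13.3 CPM against 63.9, 19.5 and 64.7 CPM (log2 fold change -2.12 ± 0.45, edgeR adjusted p = 0.0156). Itga4 (-2.01 on the log2 scale), Itgb2 (-1.83) and Icam2 (-1.14) fell with it. The macrophage gene C1qb also fell in this type (62.7 and 70.8 CPM against 210.1, 1557 and 75.5 CPM, log2 fold change -3.23 ± 0.93, edgeR adjusted p = 0.0469), with by far its highest value in sham library 2. Lyve1 was 1.42 and 1.02 CPM against 63.9, 347 and 0 CPM, with no UMI in sham library 3. The number of genes called in monocytes was 495, 763 and 427 without sham library 1, 2 or 3, 181 and 167 without raised-flow library 2 or 3, and 167 with the raised-flow libraries summed.

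In BEC 506 genes rose and 305 fell of 12696 (6.39%). Beside the interferon genes, mucosal defense and unfolded protein response genes rose, and tuft cell genes fell. Cluster 18 (Lgals2, Akr1c15) held 119, 1173 and 1467 sham BEC and 5 and 12 with raised flow, and cluster 3 (Agr2, Gkn3, Reg3g, Mmp7) 95, 183 and 120 against 948 and 1117. Called genes in BEC numbered 2677, 154 and 303 without sham library 1, 2 or 3, 65 and 79 without raised-flow library 2 or 3, and 79 with the raised-flow libraries summed. Spink4, a protease inhibitor of goblet cells, was 139 and 62.2 CPM with raised flow and 0, 0.0680000 and 0 CPM in sham (log2 fold change 11.46 ± 0.68, edgeR adjusted p = 0.00163). Gkn2, a gastrokine, was 25.3 and 25.2 CPM against 0.228, 0.135 and 0.257 CPM (log2 fold change 6.87 ± 0.25, edgeR adjusted p = 0.000295). Ccl19 was 24.6 and 19.1 CPM against 0.456, 0.135 and 0.514 CPM (log2 fold change 5.89 ± 0.39, edgeR adjusted p = 0.00179). All of these were near 0 in sham, and for Ccl19 free RNA was estimated to give 10.3 and 13.5 CPM of the 22.3 and 17.3 CPM in raised-flow BEC before scaling.

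Of the mucosal defense list 6 of 17 tested genes rose in BEC and none fell (median 1.43 against -0.04). Without sham library 1 there were 12 rises and 1 fall, where 1407 of all 12516 genes rose and 1270 fell. Tff2, a trefoil factor that protects mucosa, was 33.9 and 105 CPM against 0.912, 4.67 and 5.96 CPM (log2 fold change 3.97 ± 0.63, edgeR adjusted p = 0.0212). Reg3b, an antimicrobial lectin, was 4333 and 1629.8 CPM against 634, 479 and 618 CPM (log2 fold change 2.37 ± 0.40, edgeR adjusted p = 0.0254). Lcn2, which binds bacterial siderophores, was 3173 and 3246 CPM against 652, 559 and 719.95 CPM (log2 fold change 2.32 ± 0.17, edgeR adjusted p = 0.00234). The raised-flow libraries differed from each other most in Tff2 and Reg3b, in opposite order. Complement C3 was 1091 and 1008 CPM against 207, 135 and 227 CPM (log2 fold change 2.47 ± 0.24, edgeR adjusted p = 0.00527). Cxcl6, a ligand of neutrophil receptors, was 451 and 597 CPM against 77.3, 175 and 203 CPM (log2 fold change 1.78 ± 0.39, edgeR adjusted p = 0.0498).

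Unfolded protein response genes rose in 8 of 19 tested in BEC and fell in none, where 3.99% of all genes rose. Sdf2l1, a cofactor of the chaperone Hspa5, was 88.6 and 106 CPM against 17.3, 19.1 and 18.4 CPM (log2 fold change 2.41 ± 0.13, edgeR adjusted p = 0.00123). Hspa5 itself was 651 and 893 CPM against 400.1, 468 and 427 CPM (log2 fold change 0.84 ± 0.17, edgeR adjusted p = 0.045). Manf, a secreted factor of stressed endoplasmic reticulum, was 379 and 472 CPM against 196, 213 and 196 CPM (log2 fold change 1.07 ± 0.14, edgeR adjusted p = 0.0119). The folds of Hspa5 and Manf were smaller than that of Sdf2l1, without overlap between the groups. Among duct genes, Cldn2, a claudin that forms cation pores, rose (398 and 444 CPM against 159, 172 and 183 CPM, log2 fold change 1.30 ± 0.13, edgeR adjusted p = 0.00534). Foxa3, a transcription factor of endoderm, rose (47.5 and 55.6 CPM against 11.9, 12.1 and 9.45 CPM, log2 fold change 2.22 ± 0.16, edgeR adjusted p = 0.00221). Onecut1, a transcription factor of the biliary lineage, fell (12.3 and 10.9 CPM against 27.8, 26.6 and 28.7 CPM, log2 fold change -1.25 ± 0.13, edgeR adjusted p = 0.00576), with Onecut2 (-0.83 on the log2 scale).

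Ly6d was the strongest fall of BEC by the ranking after the pancreatic genes Pnlip and Clps, at 4.39 and 4.43 CPM with raised flow and 78.9, 320.4 and 186 CPM in sham (log2 fold change -5.47 ± 0.68, edgeR adjusted p = 0.0105). Fabp7, a fatty acid binding protein, was 2.04 and 4.10000 CPM against 30.5, 41.7 and 22.8 CPM (log2 fold change -3.37 ± 0.40, edgeR adjusted p = 0.00889). Pou2af1, a transcriptional coactivator, was 8.03 and 10.4 CPM against 34.4, 82.2 and 89.1 CPM (log2 fold change -2.91 ± 0.44, edgeR adjusted p = 0.0197). Tuft cell genes fell in 6 of 12 tested within BEC, against 2.4% of all genes falling, beside the lower tuft cell share. With doublets removed 3 of 12 fell (median log2 fold change -0.93, from -1.53). Pou2f3, the tuft cell master regulator, was 0.757 and 1.59 CPM against 7.07, 6.503 and 5.75 CPM (log2 fold change -2.45 ± 0.37, edgeR adjusted p = 0.0191). Fn1, fibronectin, fell as the one member called of the Crem and EMT list (15.7 and 14.98 CPM against 90.95, 102 and 66.6 CPM, log2 fold change -2.49 ± 0.22, edgeR adjusted p = 0.00393).

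The epithelial genes were not called within BEC: Krt19 had a log2 fold change of -0.55 (edgeR adjusted p = 0.22), Krt7 of -0.12 (0.787) and Epcam of -0.31 (0.265), and Cdh1 had an edgeR adjusted p = 0.992. Crem in BEC was 41.1 and 59.3 CPM with raised flow and 17.8, 35.8 and 34.8 CPM in sham (log2 fold change 0.74 ± 0.31, edgeR adjusted p = 0.197). Vim was 97.1 and 84.1 CPM against 29.2, 113 and 107 CPM (log2 fold change 0.11 ± 0.51, edgeR adjusted p = 0.911), with the raised-flow values inside the range of sham.

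EC gave 203 rises and 71 falls of 8926 (3.07%), from 1 cluster. Vcam1 and Edn1 rose beside the interferon genes, and Thbd, Klf4 and Flt1 fell. Vcam1, on which leukocytes arrest, rose (146 and 293 CPM against 34.4, 53.3 and 62.6 CPM, log2 fold change 2.13 ± 0.34, edgeR adjusted p = 0.0197). Edn1, the gene of the constrictor peptide endothelin 1, rose (42.8 and 48.7 CPM against 23.8, 11.2 and 15.2 CPM, log2 fold change 1.47 ± 0.29, edgeR adjusted p = 0.0427). Thrombomodulin, an anticoagulant receptor, went the other way, with Thbd lower (169.7 and 177 CPM against 356, 359.9 and 363 CPM, log2 fold change -1.05 ± 0.16, edgeR adjusted p = 0.0151). The complement gene C1s rose (60.98 and 98.1 CPM against 2.65, 4.799 and 10.8 CPM, log2 fold change 3.65 ± 0.43, edgeR adjusted p = 0.00581), with C1r (2.95 on the log2 scale) and Serping1 (3.40). In EC edgeR called 1103, 71 and 156 genes without sham library 1, 2 or 3, 51 and 36 without raised-flow library 2 or 3, and 40 with the raised-flow libraries summed.

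Of the shear and endothelial genes 1 rose and 4 fell of 24 tested in EC, against 2.27% of all genes rising and 0.795% falling. After the empty-barcode profile was subtracted 2 fell, where 35 of all 8557 genes fell. Without sham library 1, 4 rose and 9 fell, where 664 of all 8835 genes rose and 439 fell. Klf4, which laminar shear induces, was 472 and 500.4 CPM with raised flow and 894, 829 and 868 CPM in sham (log2 fold change -0.83 ± 0.17, edgeR adjusted p = 0.0422). Flt1, a VEGF receptor, was 339 and 395 CPM against 741, 681 and 746 CPM (log2 fold change -0.98 ± 0.17, edgeR adjusted p = 0.0286). The sham libraries lay close together in both genes. The level of Klf2 in EC, the other shear-induced factor, was 66.4 and 76.2 CPM against 323, 32.5 and 22.99 CPM and was not called (edgeR adjusted p = 0.741), with sham library 1 far above all others, and without that library it rose (log2 fold change 1.36, edgeR adjusted p = 0.000522). Nos3, the endothelial nitric oxide synthase, was 119.7 and 122 CPM against 88.6, 86.4 and 90.5 CPM (edgeR adjusted p = 0.195), higher in both raised-flow libraries but not called. Slpi, among the 5 strongest rises of EC (337 and 341 CPM against 5.29, 4.26 and 9.29 CPM, log2 fold change 5.72 ± 0.28, edgeR adjusted p = 0.000175), lay near its free-RNA estimate, 306 and 305 CPM before scaling against 197 and 355 CPM.

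Lymphatic EC, from 96 and 46 cells against 70, 318 and 118, gave 141 rises and 58 falls of 6331 genes (3.14%). Ccl19, a ligand of Ccr7 that guides lymphocytes and dendritic cells, was 321 and 87.1 CPM against 0 in all sham libraries, at least 44.8-fold higher, where free RNA was estimated to give 13.5 and 20.4 CPM. Mup5, of a family of near-identical major urinary protein genes, was 275 and 279 CPM against 0, 13.99 and 0 CPM (log2 fold change 5.23 ± 0.69, edgeR adjusted p = 0.00892), and which copy the UMIs came from is uncertain. Prox1, the master regulator of lymphatic identity, fell (247 and 306 CPM against 654, 571 and 522 CPM, log2 fold change -1.08 ± 0.20, edgeR adjusted p = 0.032). The 5 strongest falls were Akr1c15, at least 10.8-fold lower, Tppp3 (-4.39 on the log2 scale), Pcp4l1 (-4.19), Ntn1 (-3.99) and the epithelial gene Epcam (3.12 and 2.49 CPM against 51.8, 71.97 and 279.8 CPM, log2 fold change -5.44 ± 1.07, edgeR adjusted p = 0.0379). Free RNA alone was estimated to give 44.1, 81.5 and 94.2 CPM of Epcam in sham, against 55.1, 70.5 and 274 CPM observed before scaling. Akr1c15 is also a leading gene of BEC cluster 18, which held 119, 1173 and 1467 cells in sham and 5 and 12 with raised flow. The part of free RNA in its fall is not given here. In lymphatic EC edgeR called 712, 72 and 107 genes without sham library 1, 2 or 3, 31 and 46 without raised-flow library 2 or 3, and 52 with the raised-flow libraries summed.

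In fibroblasts 587 genes rose and 228 fell of 11276 (7.23%). Cytokine genes rose with the interferon genes, and the main fibrillar collagens were not called. Cluster 8 (Dpt, Lum, Ogn) held 60.0% to 80.6% of sham fibroblasts and 8.82% and 14.1% of those with raised flow, and cluster 12 (Mfap5, Ccdc80, Bgn) 6.10% to 21.2% against 80.4% and 64.5%. Called genes in fibroblasts numbered 1732, 345 and 307 without sham library 1, 2 or 3, 143 and 153 without raised-flow library 2 or 3, and 201 with the raised-flow libraries summed. Inflammatory cytokine and NF-kB genes rose in 7 of 16. Il33, an alarmin of stromal nuclei, was 371 and 325 CPM with raised flow and 86.7, 126 and 55.3 CPM in sham (log2 fold change 1.96 ± 0.32, edgeR adjusted p = 0.0196). Il6 was 270.4 and 198 CPM against 49.9, 99.4 and 42.2 CPM (log2 fold change 1.85 ± 0.37, edgeR adjusted p = 0.0349). Il15ra, which presents interleukin 15 to lymphocytes, was 41.96 and 45.2 CPM against 0, 0.839 and 1.26 CPM (log2 fold change 5.39 ± 0.29, edgeR adjusted p = 0.000543). Cfb, complement factor B, was 86.5 and 45.7 CPM against 18.4, 1.35 and 0.732 CPM (log2 fold change 5.34 ± 1.03, edgeR adjusted p = 0.0307), with sham library 1 above the other sham libraries.

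Of collagen and matrix genes 3 rose and 1 fell of 29 tested in fibroblasts, near the 5.21% rising and 2.02% falling of all genes. Without sham library 1 they were 5 and 4, of 1127 rises and 605 falls among 12979 genes. Col1a1 was 12654 and 10252 CPM with raised flow and 7339.7, 14606 and 15609 CPM in sham (log2 fold change -0.13 ± 0.34, edgeR adjusted p = 0.858) and Col3a1 18796 and 16866 CPM against 10671, 21418 and 25893 CPM (log2 fold change -0.12 ± 0.37, edgeR adjusted p = 0.882), both with raised-flow values inside the range of sham. Bgn, biglycan, rose (2179 and 1948 CPM against 553, 948 and 1015 CPM, log2 fold change 1.30 ± 0.27, edgeR adjusted p = 0.0385), with the basement membrane genes Col4a1 (1.27 on the log2 scale) and Col18a1 (0.88). Sparcl1, a matricellular gene, fell (68.8 and 101 CPM against 737, 294 and 468 CPM, log2 fold change -2.55 ± 0.42, edgeR adjusted p = 0.0195), with Fbln5 (-1.20) and Col5a2 (-1.10). Ccn2, a target of TGF-beta, rose (301 and 157 CPM against 31.4, 38.3 and 74.4 CPM, log2 fold change 2.20 ± 0.41, edgeR adjusted p = 0.0279).

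VSMC gave 329 rises and 204 falls of 5533 genes (9.63%), from 127 and 234 cells against 73, 121 and 85. As background, 3.69% of all genes tested there fell. Ccl2, Ccl7 and Ccl19 rose in this type, and so did Vim. Ccl2 was 4939 and 4342 CPM with raised flow and 308, 540.4 and 686 CPM in sham (log2 fold change 3.19 ± 0.28, edgeR adjusted p = 0.000164). Ccl7, which binds the same receptor, was 1055 and 1016 CPM against 133, 44.5 and 73.8 CPM (log2 fold change 3.60 ± 0.34, edgeR adjusted p = 0.000307). Ccl5, a T cell chemokine, was 136 and 71.2 CPM against 0, at least 13.4-fold higher. Ccl19 was 9437 and 9924 CPM against 661, 563 and 985 CPM (log2 fold change 3.72 ± 0.22, edgeR adjusted p = 3.1e-05), the highest level of this gene in any of the 8 types. Genes of the Crem and EMT list rose in 4 of 14, against 5.95% of all genes, and in 2 of 14 after the empty-barcode profile was subtracted. The 4 were Vim (3786 and 3862 CPM against 2703, 2239.6 and 2518 CPM, log2 fold change 0.62 ± 0.14, edgeR adjusted p = 0.0268), Cdh2 (1.60 on the log2 scale), Snai2 (1.98) and Fn1 (2.07). Vim was not called in the other 7 types, and Cdh2 was not called in the 3 of them in which it could be tested. Cell cycle genes rose in 5 of 11, with Cdk1 at 65.3 and 66.2 CPM against 7.95, 8.896 and 7.03 CPM (log2 fold change 3.0 ± 0.33, edgeR adjusted p = 0.000754). In VSMC edgeR called 774, 334 and 670 genes without sham library 1, 2 or 3, 119 and 139 without raised-flow library 2 or 3, and 144 with the raised-flow libraries summed.

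The other days of raised flow and the transplant arm on day 3 were set beside raised flow on day 3 in a fit on all 20 libraries. Levels in these contrasts are scaled by TMM factors of the 20 libraries and so differ slightly from the levels given above for the same libraries. Against raised flow on day 1, 252 genes were higher on day 3 (1.55%) and 196 lower (1.2%) of 16286 (2.75% in all). Without raised-flow library 2 or 3, 28 and 32 genes were called, and a fit on these 2 groups alone called 1731. Interferon-stimulated genes were higher on day 3 in 10 of 20 (median 2.71), antigen presentation genes in 8 of 18 and checkpoint genes in 5 of 13. Cxcl9 was 742 and 1069.7 CPM on day 3 and 10.4, 0.632 and 1.35 CPM on day 1 (log2 fold change 7.77 ± 1.42, edgeR adjusted p = 0.0112). Cxcl10 was 1092 and 1654 CPM on day 3 and 50.8, 20.5 and 17.1 CPM on day 1 (log2 fold change 5.54 ± 0.65, edgeR adjusted p = 0.000545). Ubd was 800.1 and 511 CPM on day 3 and 15.6, 3.37 and 1.94 CPM on day 1 (log2 fold change 6.55 ± 1.14, edgeR adjusted p = 0.00826).

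Ghrl, the gene of the stomach hormone ghrelin, was the strongest difference from day 1, with 65.1 and 68.3 CPM on day 3 and 0.188, 0.259 and 0.197 CPM on day 1 (log2 fold change 8.27 ± 1.26, edgeR adjusted p = 0.00326). Sham libraries ranged from 0.769 to 27.96 CPM in it. Genes lower on day 3 were led by Rbp4, the retinol carrier, at 8.69 and 6.01 CPM against 132, 142 and 57.6 CPM (log2 fold change -3.91 ± 0.79, edgeR adjusted p = 0.0193), followed by Pcsk5 (-3.14 on the log2 scale), Steap1 (-3.11), Alpl (-2.80) and the zinc importer gene Slc39a14 (-2.78).

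Against raised flow on day 7 no gene was called by edgeR, with 879 of 16286 at an unadjusted p under 0.05. Against transplant on day 3 none was called either, with 2369 at an unadjusted p under 0.05, while a fit on the libraries of those 2 groups alone called 250 higher and 273 lower with raised flow. Of the 3 transplant day 3 libraries 2 kept only 437 and 337 cells, since 2479 and 3966 of their barcodes were over the hemoglobin limit. Cxcl9 over all cells averaged 906 ± 232 CPM (SD, n = 2) with raised flow on day 3 and 499 ± 40.9 CPM (n = 3) on day 7. In the transplant arm it averaged 51.7 ± 41.01 CPM on day 3 and 236 ± 92.2 CPM on day 7 (n = 3 each), and in sham 9.10000 ± 6.098 CPM (n = 3). The n counts libraries, and the libraries of each transplant or raised-flow day are file sets of a single deposited sample. The log2 difference between the arms on day 3 was 4.10 ± 1.22 (edgeR adjusted p = 0.197), and the fit on the 2 groups alone called Cxcl9 against transplant day 3 (log2 fold change 4.08, edgeR adjusted p = 0.0231). Ctla4 averaged 33.8 ± 5.35 CPM (n = 2) with raised flow on day 3, 7.43 ± 5.98 CPM in the transplant arm that day and 1.11 ± 0.139 CPM in sham (n = 3 each), with an edgeR adjusted p = 0.276 between the arms, and 0.0668 for Ctla4 against transplant day 3 in the fit on the 2 groups. These contrasts share the raised-flow day 3 libraries with the comparison against sham.

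**Figure D5:**
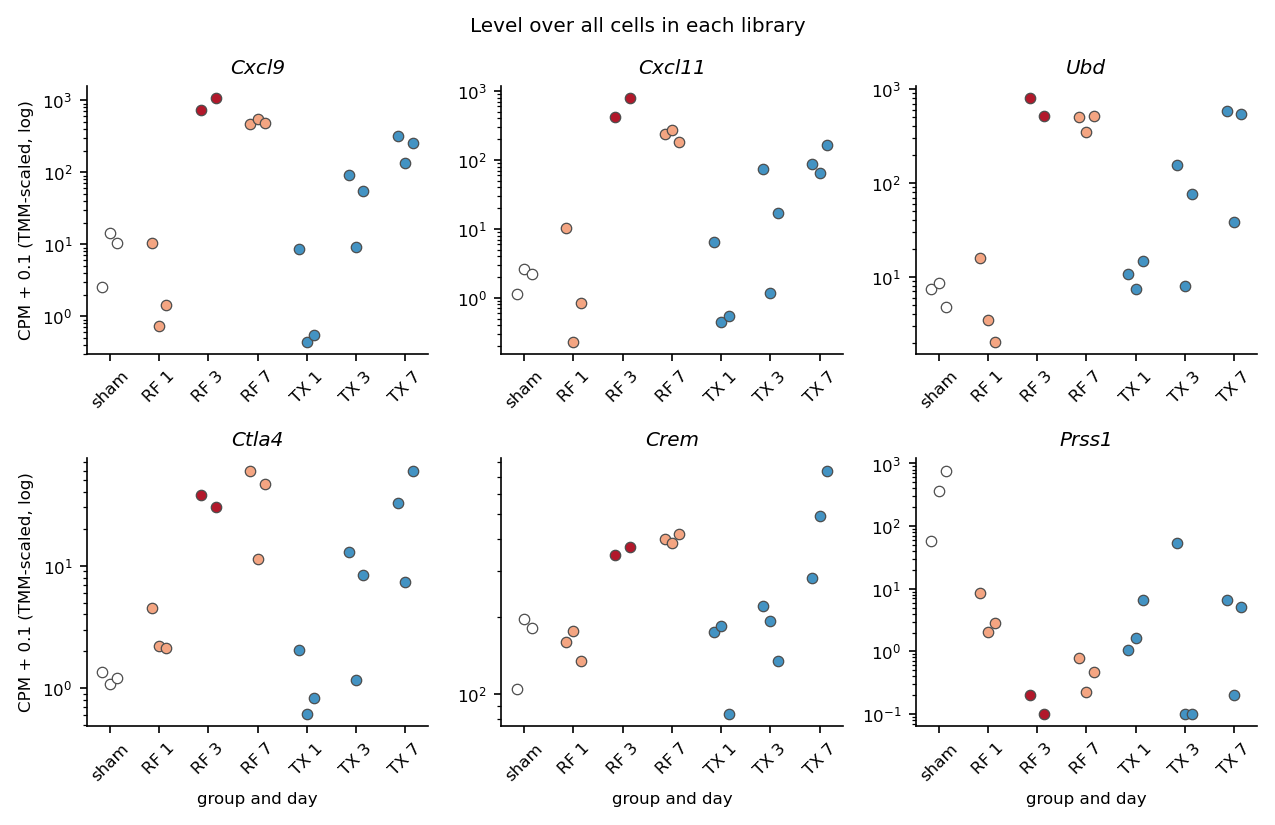
Level over all cells of Cxcl9, Cxcl11, Ubd, Ctla4, Crem and Prss1 in every library of the 7 groups of the series (y axis, TMM-scaled CPM + 0.1 on a log scale; each point is a library; RF, raised flow, and TX, transplant, with the day). Cxcl9 lies at 742 and 1069.7 CPM in the raised-flow libraries of day 3 and below 11 CPM in those of day 1.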

How the data were processed

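Single-cell suspensions of rat bile duct were sequenced with the 10x 3′ chemistry. The authors deposited raw counts of UMIs per gene and barcode (23999 features, 20 libraries used). The matrix headers give Cell Ranger 4 and the submitters' processing notes name Cell Ranger 5.0.1 and Seurat 3.2.0, so the version is unclear. The genome build and annotation are not given in the sources used here, so no coordinates are given. No deposited annotation of cells was used.

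The limits on detected genes (401 to 5999), mitochondrial (25%) and hemoglobin UMIs (3%) left 150379 cells, which were clustered on 2000 variable genes without the members of the 29 gene lists (30 principal components, 20 neighbours, Leiden resolution 0.9, scikit-learn 1.9.0 and leidenalg 0.10.2), and 37 of the 44 clusters were named by at least 3 markers, while 7 with too few markers or markers of more than 1 type stayed unnamed. Doublets were scored and kept, and the 7.5% of cells with the highest scores per library were removed in an alternative. Types with at least 20 cells in each of the 5 libraries were tested. UMI counts were summed per library and tested with edgeR 4.0.16 (R 4.3.3, quasi-likelihood, TMM, filterByExpr), 2 raised-flow against 3 sham libraries, and in a fit of 7 groups over 20 libraries for the other contrasts. SE is the absolute log2 fold change divided by the square root of F. Shares were compared by a two-sided exact permutation test. Floors are 3 UMIs per library and cover counting error only, as do all counts given as limits. Free RNA in a type was estimated from the barcodes with at most 100 UMIs and genes of other types.

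Genes were named by a rule: the 12 strongest called rises and falls over all cells, the 5 in each type and contrast, up to 4 called members of each list, and Krt19, Krt7, Epcam, Crem, Vim, Cdh1 and Cdh2, where the strongest have no overlap and at least 20 CPM. Other list members named within a cell type, and Gbp1, Klf2, Nos3 and the free-RNA examples where they fall outside the rule, were chosen after their values were seen. The comparison, the gene lists and the rule were chosen with earlier results of these data known. The fit was tested on simulated data with 200 changed genes: over all cells (15381 genes) it recovered 73% of genes changed 4-fold and 6% of those changed 2-fold, and in NK&T (6651 genes) 96% and 61%. Alternatives were other scalings, DESeq2 1.42.0, limma 3.58.1 on the 8 tested cell types at equal weight without TMM, other filters and each library left out. A replicate block was added after the data were seen. Results for a few list members are not reported here, although the counts over their lists include them.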

Additional observations from a re-analysis of the deposited data

How the results depend on the processing

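With 2 against 3 libraries the counts of called genes depended on single libraries, and leaving out sham library 1, the smallest, raised the count in 8 of 9 sums. The lowest and highest counts without 1 library were 0 and 7529 over all cells (1707 with all), 65 and 2677 in BEC (811), 36 and 1103 in EC (274), 143 and 1732 in fibroblasts (815), 31 and 712 in lymphatic EC (199), 0 and 3404 in macrophages (956), 167 and 763 in monocytes (516), 392 and 3352 in NK&T (2136) and 119 and 774 in VSMC (533). With the raised-flow libraries summed, edgeR called 0 genes over all cells (2553 at an unadjusted p under 0.05, against 4307 called by DESeq2 on the unsummed libraries), 79 in BEC, 40 in EC, 201 in fibroblasts, 52 in lymphatic EC, 8 in macrophages, 167 in monocytes, 499 in NK&T and 144 in VSMC.

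Library numbers 2 and 3 occur in both groups, and a replicate block on the number was added after the data were seen. Over 15381 genes the deviations of same-numbered libraries from their group means correlated at -0.0246 (number 2) and 0.0887 (number 3), and no label says that a number marks a shared animal or batch, so the libraries share only a number. Sham library 1 has no partner and adds nothing to the contrast in that fit. With the replicate block edgeR called 7216 genes over all cells, 2968 in BEC, 1494 in EC, 3066 in fibroblasts, 524 in lymphatic EC, 3805 in macrophages, 395 in monocytes, 3234 in NK&T and 358 in VSMC. The log2 fold change with the block turned to -0.29 for Vim in BEC, 1.37 for Klf2 in EC, 0.0019 for Cdh1 in all cells and 0.0254 for Krt7 in all cells.

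Over all cells DESeq2 called 4307 genes, equal cell type shares 1056 and the fit on all libraries 1078. DESeq2 called 1415 in BEC and 421 in EC. Without a filter on low counts the number was 790 in EC, 709 in lymphatic EC, 1464 in macrophages, 984 in monocytes and 991 in VSMC. Subtraction of the empty-barcode profile left 159 in EC and 448 in fibroblasts. Against raised flow on day 1 the count of 448 became 1731 in a fit on the 2 groups and 28 to 32 without 1 raised-flow library. Against transplant on day 3 the count of 0 became 523 in the fit on the 2 groups and 1 without the filter. The cause of these changes was not tested.

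Of the 188 gene values given as results, none that was called changed direction under an alternative in its comparison. Called genes that the text names outside these values were not checked in this way. The 188 gene values given as results include genes that were not called, and some alternatives covered only part of the values. Called values that were no longer called numbered 2, 59 and 46 without sham library 1, 2 or 3. Under each other alternative that kept more than 1 library in a group they numbered 0 to 7. With equal cell type shares 4 lost their call, while 14 values were called or not called as before. Many calls were also lost in fits that left 1 raised-flow sample, with the libraries summed or 1 left out, which have no spread within that group. Of those not called, and counting only values that kept their direction, 9 were called with the replicate block and 6 without sham library 1. There was 1 each under DESeq2, no filter, equal cell type shares and the fit on 2 groups. Klf2 in EC, whose direction turned, was also called without sham library 1. Among genes not called, the log2 fold change of Cdh1 in BEC turned to 0.0179 under DESeq2, 0.0185 under RLE scaling, 0.0056 without the filter and 0.0048 with the raised-flow libraries summed. Vim in BEC turned to -0.16 with doublets removed and -0.63 after subtraction, and with equal cell type shares Cdh2 in all cells turned to 0.42 and Crem in all cells to -0.45. The range without 1 library crossed 0 for Cdh1 in BEC (-0.12 to 0.10), Krt7 in BEC (-0.57 to 0.24), Vim in BEC (-0.28 to 0.39), Klf2 in EC (-1.32 to 1.36), Col1a1 in Fibroblast sums (-0.40 to 0.0526), Col3a1 in Fibroblast sums (-0.41 to 0.14), C1qc in Macrophage sums (-0.084 to 0.60), Cdh1 in all cells (-0.24 to 0.0892) and Krt7 in all cells (-0.65 to 0.29).

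The difference in the mean share of cells (raised flow minus sham, in percentage points) kept its direction in every alternative for monocytes, NK&T, B, tuft and acinar cells and fibroblasts. By share of UMIs it turned to 1.46 in macrophages, 0.0411 in dendritic and 0.0126 in goblet cells, and at Leiden resolution 2 to 0.0015 in plasma cells. The range without 1 library crossed 0 in BEC (-3.55 to 0.075), EC (-2.68 to 1.84), dendritic (-0.73 to 0.0561), goblet (-0.0775 to 0.0426) and plasma cells (-0.0442 to 0.0168) and in VSMC (-0.0869 to 1.04).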
